A study of Mus musculus with 6 samples.

Results

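The 10 apolipoprotein genes Apoa1, Apoa2, Apoa4, Apoa5, Apob, Apoc1, Apoc2, Apoc3, Apoe and Apom were taken by gene name from a table of 54532 genes, where each name had 1 row. Counts of reads were available for them in 6 bulk RNA libraries from the ischemic lobe of mouse liver, sampled after 1 h of warm ischemia (blood flow to the lobe clamped) and 12 h of reperfusion (flow restored). The WT group was made up of WT-14, WT-44 and WT-77, from wild-type C57bl/6 mice. The IRF8-cKO group was made up of IRF8-cKO-71, IRF8-cKO-88 and then IRF8-cKO-106, from C57bl/6 mice without interferon regulatory factor 8 in hepatocytes, and per-library values follow these orders throughout. Ischemia and reperfusion were common to both groups, and uninjured liver was not among the samples. The sources used here do not give the Cre line, the alleles of the controls, age or sex. Whether each library is a separate animal is not stated, so p-values reflect only the spread among these libraries, which may be technical. The question addressed is whether apolipoprotein transcript levels in injured liver differ with loss of IRF8 from hepatocytes.

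Apolipoproteins are the protein coat of lipoproteins, the particles that carry triglyceride and cholesterol in blood. Apolipoprotein B is the non-exchangeable backbone of very low density lipoprotein (VLDL), which hepatocytes assemble and secrete. Apolipoprotein A-I is the scaffold of high density lipoprotein (HDL), and the small C apolipoproteins and apolipoprotein E move between particles and steer lipolysis and uptake by receptors. Most of these transcripts in liver come from hepatocytes, while macrophages also make apolipoproteins E and C-I. Bulk RNA cannot tell fewer cells of a type from less RNA per cell.

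Of the 10 genes, 9 stood at a negative log2 fold change in IRF8-cKO relative to WT and 1, Apob, at a positive one. Among all 13134 genes tested, 6366 were negative. The sign of Apoa4, Apoa5 and Apoc2 was not kept with every single library left out. Their log2 fold changes then ranged from -0.74 to 0.29, from -0.82 to 0.037 and from -1.36 to 0.49. The median over the 10 genes was -0.71, and the median over all 13134 genes tested was 0.03. Over the 1247 genes with a mean of at least 100 CPM (scaled reads per megaread) it was -0.16. Over the 110 genes with at least 1000 CPM it was -0.25. The median over the 10 was -0.42 without WT-44, -0.35 after the gene length correction described below, and -0.43 with library totals only. For Apoe, Apoa2, Apoc1 and Apoc3 the highest IRF8-cKO level was below the lowest WT level, and the fitted levels were 2.00- to 2.88-fold lower. None of the 10 passed the test across all genes (edgeR quasi-likelihood test with Benjamini-Hochberg adjustment at 0.05, which called 1.39% of all genes); 4 of the 10 had an unadjusted p under 0.05, as did 24.1% of all genes. DESeq2 called 3 of the 10, Apoc1, Apoe and Apoa2, all lower, against 11.3% of all genes, limma-voom called 0 against 0.845%, limma-voom with library weights 1 (Apoc1) against 5.06%, and edgeR without the low-count filter 1 (Apoc1) against 7.15%. None of the 10 was called with library totals only (0.624% of all genes) or after the gene length correction (0.586%). Levels of 5 of the 10 did not overlap between the groups, 1 higher (14.4% of all genes) and 4 lower (14.5%). In either direction, 28.9% of all genes and 32.7% of those with a mean of at least 100 CPM did not overlap. Without WT-14, WT-44 or WT-77 the number was 6, 6 and 5 of the 10 (44.6%, 34.5% and 34.9% of all genes), and without IRF8-cKO-71, IRF8-cKO-88 or IRF8-cKO-106 it was 5, 7 and 5 (42.1%, 45.6% and 36.9%).

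Levels are given below as CPM, which are reads per megaread of a library after scaling by edgeR's TMM factors, which adjust for the make-up of each library. Libraries held 14758237 to 16805830 counts, and all 15 hepatocyte marker genes listed had reads in every library. The TMM factor was lowest in WT-44 (0.786) and highest in IRF8-cKO-106 (1.32), which raises CPM in WT-44 and lowers it in IRF8-cKO-106. Scaling by library totals alone shifted the overall median from 0.03 to 0.25 on the log2 scale. Irf8, the targeted gene, had a mean of 9.69 CPM (SD 0.523) in the WT group and 5.51 CPM (SD 1.28) in the IRF8-cKO group (n = 3; log2 fold change -0.81, adjusted p = 0.174 in edgeR).

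**Figure D1:**
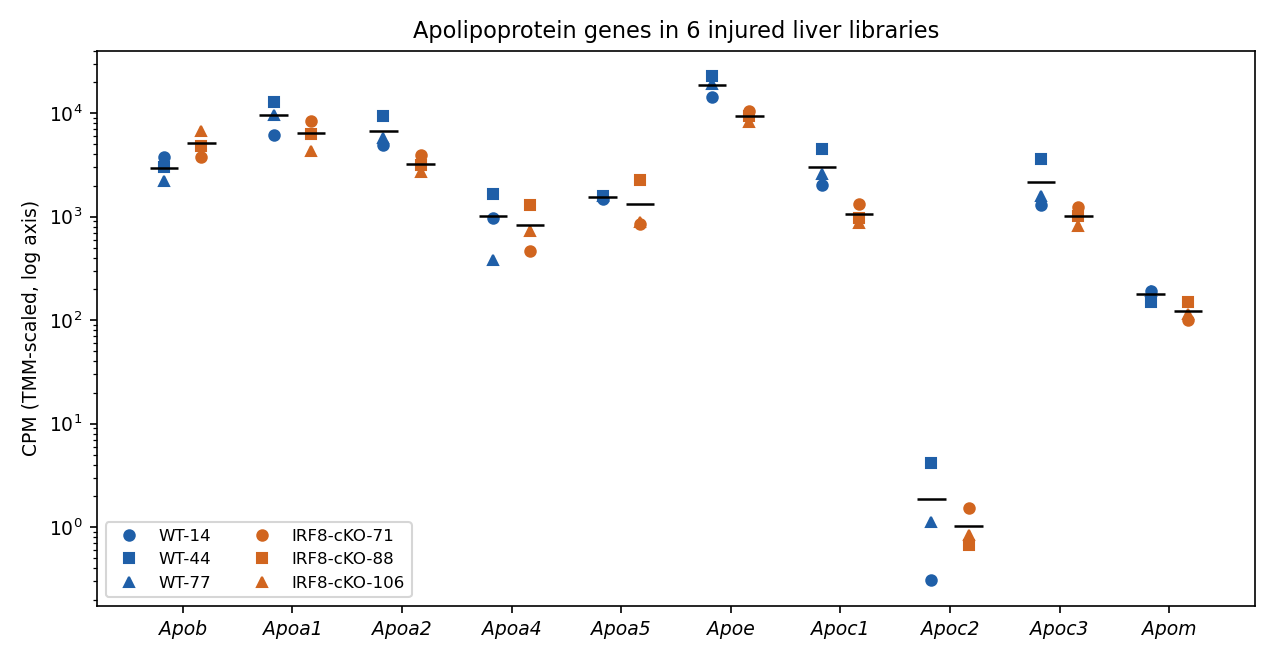
CPM of each apolipoprotein gene (log axis) in the 3 WT libraries (blue) and the 3 IRF8-cKO libraries (orange), with black bars at the group means. Blue and orange points are separate for Apob, Apoa2, Apoe, Apoc1 and Apoc3, and mixed for the other 5 genes.

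Promoter windows are shown for 3 genes the results turn on. Apoe and Apoa2 had the most similar profiles of any pair of the 10 genes over the 6 libraries, and Apob had the opposite direction. Each window runs from 250 bases before to 50 bases after the RefSeq gene start (build GRCm38.p6, the same assembly as mm10), 5′ to 3′ on the gene's strand, with capitals for matches on either strand to TATAAA (letters of the TATA box, which lies close before the start in genes that have one), to AGGTCA (a site of nuclear receptors) or to CAAAG (found in sites of HNF4 and related factors). The windows are chr7:19699139-19699438 on the minus strand for Apoe, chr1:171224804-171225103 on the plus strand for Apoa2 and chr12:7977427-7977726 on the plus strand for Apob.
Apoe: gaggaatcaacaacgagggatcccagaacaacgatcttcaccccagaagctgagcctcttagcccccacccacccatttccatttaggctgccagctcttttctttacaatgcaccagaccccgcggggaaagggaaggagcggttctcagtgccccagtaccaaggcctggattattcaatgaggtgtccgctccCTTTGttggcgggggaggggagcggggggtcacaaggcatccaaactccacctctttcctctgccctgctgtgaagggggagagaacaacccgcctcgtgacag
Apoa2: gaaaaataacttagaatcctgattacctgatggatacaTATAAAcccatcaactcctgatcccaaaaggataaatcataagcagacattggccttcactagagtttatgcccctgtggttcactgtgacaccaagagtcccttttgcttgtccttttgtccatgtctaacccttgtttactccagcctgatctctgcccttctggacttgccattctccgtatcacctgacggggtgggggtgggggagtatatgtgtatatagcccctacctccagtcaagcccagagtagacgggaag
Apob: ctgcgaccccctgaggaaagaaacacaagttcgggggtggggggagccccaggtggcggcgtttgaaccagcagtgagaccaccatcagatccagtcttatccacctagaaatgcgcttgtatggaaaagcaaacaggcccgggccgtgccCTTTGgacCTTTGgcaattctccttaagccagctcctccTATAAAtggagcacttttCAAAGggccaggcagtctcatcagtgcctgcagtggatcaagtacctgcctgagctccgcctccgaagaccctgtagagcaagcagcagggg
The Apob window held 1 TATAAA and 3 CAAAG matches, the Apoa2 window 1 TATAAA and no CAAAG, and the Apoe window 1 CAAAG and no TATAAA. The TATAAA letters began 60 bases before the RefSeq start in Apob and 212 bases before it in Apoa2. In Apob the RefSeq start lies 29 bases downstream of the gene start given with the counts, and in Apoa2 the starts are the same. Of all 32851 windows in the table, 13.6% held TATAAA, while 16.3% held AGGTCA and 53.9% held CAAAG. None of the 3 windows held AGGTCA, and no motif overlapped another there. Of the 10 genes, 8 had a window in the table; Apoc1 and Apoc3 were not among them.

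Apob (ENSMUSG00000020609, chromosome 12, 7977648 to 8016835, plus strand, mm10), with 13934 exonic bases by far the longest of the 10, encodes the VLDL backbone. It stood at 3744, 3014 and 2192 CPM across WT against 3789.7, 4842 and 6711 CPM across IRF8-cKO. The lowest IRF8-cKO library lay just above the highest WT library, and IRF8-cKO-106 was the highest of all. The group means were 2983 ± 776 and 5114 ± 1479 CPM (SD, n = 3), a log2 fold change of 0.78 (SE 0.37, 95% interval -0.05 to 1.60), which did not pass (edgeR adjusted p = 0.228). The exact permutation p (two-sided) was 0.1, the smallest value that 3 against 3 libraries allow. The separation was not kept with library totals alone, where WT-14 stood at 4015 CPM and IRF8-cKO-71 at 3662 CPM, although the log2 fold change was then 1.03.

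Apoe (ENSMUSG00000002985, chromosome 7, 19696109 to 19699188, minus strand), whose product mediates the uptake of lipoprotein remnants, took the most reads of the 10 genes in each of the 6 libraries. It stood at 14379.9, 22882 and 19023 CPM across WT against 10598, 9339 and 8227 CPM across IRF8-cKO. All 3 IRF8-cKO libraries lay below all 3 WT libraries, and they were closer to each other (SD 1186 CPM) than the WT libraries were (SD 4257 CPM). With library totals only, Apoe stood at 15421.5, 17983 and 17906 CPM across WT against 10240, 9252 and 10832 CPM across IRF8-cKO. There the groups stayed separate and the difference in spread was smaller. On the TMM scale the log2 fold change was -0.999 (SE 0.36, 95% interval -1.79 to -0.21), a 2.00-fold lower level that did not pass (edgeR adjusted p = 0.137; exact permutation p = 0.1). In DESeq2 the adjusted p was 0.0186, and over the 17 alternative settings, DESeq2 included, the log2 fold change ranged from -1.16 to -0.76.

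Apoc1 (ENSMUSG00000040564, chromosome 7, 19689481 to 19692660, minus strand), which lies next to Apoe and encodes a small apolipoprotein that hinders lipolysis and remnant uptake, had the largest difference of the 10 genes. It stood at 2034, 4515 and 2569 CPM across WT against 1332, 963 and 869 CPM across IRF8-cKO. The groups did not overlap, and WT-44 stood well above the other WT libraries. The log2 fold change was -1.53 (SE 0.40, 95% interval -2.41 to -0.65), a 2.88-fold lower level. Its adjusted p of 0.0747 was the lowest of the 10 genes in edgeR and did not pass. It passed in DESeq2 (adjusted p = 0.00206), in limma-voom with library weights (0.0379) and in edgeR without the low-count filter (0.00276), and it moved to -1.13 (adjusted p = 0.266) without WT-44.

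Apoc3 (ENSMUSG00000032081, chromosome 9, 46232933 to 46235636, minus strand) encodes an inhibitor of triglyceride clearance. Its levels were 1309.8, 3595 and 1595 CPM across WT against 1241, 1017 and 816 CPM across IRF8-cKO. The groups were separate by a narrow margin, between WT-14 and IRF8-cKO-71, and WT-44 was by far the highest library. The log2 fold change of -1.08 (SE 0.43, edgeR adjusted p = 0.168) did not pass and rested largely on WT-44, without which it was -0.51 (adjusted p = 0.539).

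Apoc2 encodes the activator of lipoprotein lipase and is known as an abundant liver transcript. In this table it held only 5, 48 and 17 reads across WT against 25, 11 and 18 reads across IRF8-cKO. In the GENCODE M21 annotation, 646 of its 813 exonic bases (79.5%) also belong to exons of Gm44805, a predicted protein-coding gene on the same strand whose span covers most of Apoc2 and Apoc4. Gm44805 was listed at 0 reads in all 6 libraries. How reads in exons of more than 1 gene were counted is not stated, and the part of this overlap in the low count was not tested. The Apoc2 count is therefore uncertain as a level, and its log2 fold change of -0.84 (SE 0.81, edgeR adjusted p = 0.545) turned to 0.49 without WT-44.

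Among the HDL apolipoproteins, Apoa2 (ENSMUSG00000005681, chromosome 1, 171225054 to 171226379, plus strand) stood at 4888, 9489 and 5781 CPM across WT against 3918, 3186 and 2674 CPM across IRF8-cKO. Its groups did not overlap, and WT-44 was again the highest library. The log2 fold change was -1.04 (SE 0.38, 95% interval -1.88 to -0.20), which did not pass (edgeR adjusted p = 0.139; DESeq2 adjusted p = 0.0339). Apoa1 (ENSMUSG00000032083, chromosome 9, 46228580 to 46230466, plus strand), the HDL scaffold, stood at 6176, 12853 and 9668 CPM across WT against 8477, 6330.2 and 4298 CPM across IRF8-cKO. Its groups overlapped, since WT-14 lay below both IRF8-cKO-71 and IRF8-cKO-88, and the log2 fold change of -0.59 (SE 0.41, adjusted p = 0.395) moved to -0.32 without WT-44. Apom, which carries sphingosine-1-phosphate on HDL, stood at 191, 149 and 193 CPM across WT against 100.005, 149 and 116 CPM across IRF8-cKO. WT-44 and IRF8-cKO-88 had nearly the same Apom level, and unlike for Apoa1 and Apoa2 WT-44 was the lowest WT library (log2 fold change -0.55, SE 0.28, edgeR adjusted p = 0.258).

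Apoa4 and Apoa5 lie in the Apoa1 and Apoc3 gene cluster on chromosome 9 and differed widely between libraries of 1 group. Apoa4, which is made by intestine and by fasting or lipid-loaded mouse liver, stood at 964, 1668 and 382 CPM across WT against 468, 1286 and 729 CPM across IRF8-cKO. The lowest and the highest of the 6 levels were both in WT libraries. Apoa5, an activator of triglyceride clearance, was even in WT at 1473, 1568 and 1569 CPM (SD 55.0 CPM). It stood at 853, 2253 and 881 CPM across IRF8-cKO, so that IRF8-cKO-88 lay above all WT libraries and the other IRF8-cKO libraries below them. Neither gene passed (log2 fold change -0.28, SE 0.54, and -0.21, SE 0.42; edgeR adjusted p = 0.781 and 0.787), and without IRF8-cKO-88 Apoa5 stood at -0.82 (adjusted p = 0.176) while Apoa4 turned to 0.29 without WT-44. Exons of genes annotated on the opposite strand cover 1266 bases of Apoa4 and 524 bases of Apoa5. One of them, Gm47528 opposite Apoa4, held 2 to 353 reads, and without strand information reads of such partners cannot be told apart.

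**Figure D2:**
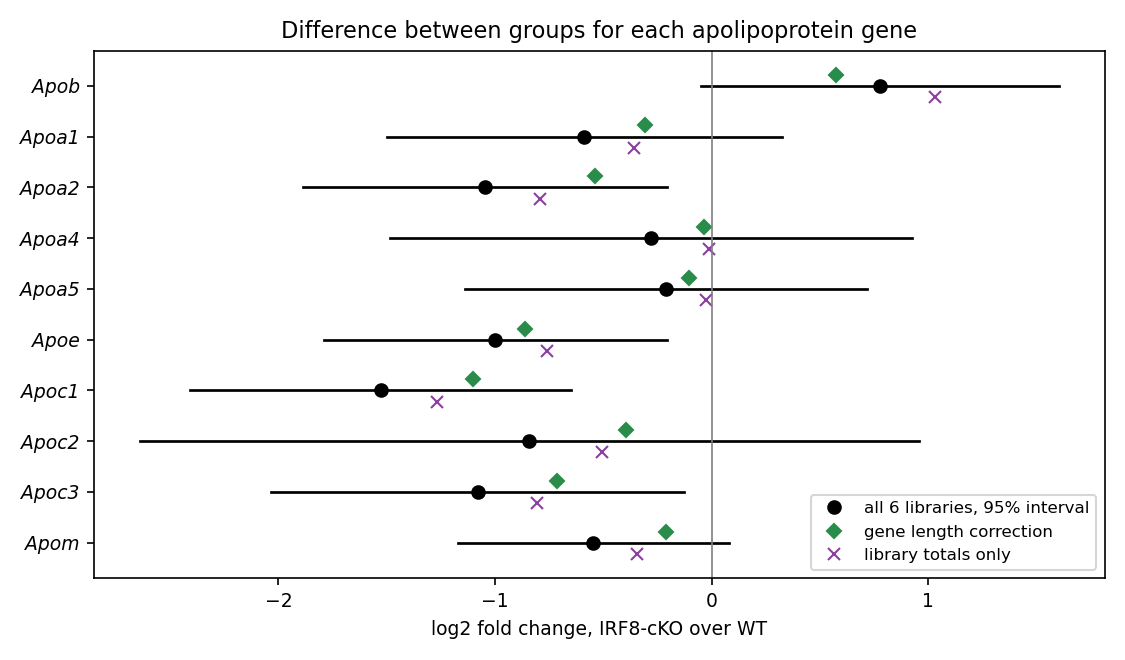
Log2 fold change of each apolipoprotein gene, IRF8-cKO over WT, with its 95% interval on all 6 libraries (black), after the gene length correction (green diamonds) and with library totals only (purple crosses). Apob is the only gene right of 0 on all 3 scales, and the intervals of Apoa2, Apoe, Apoc1 and Apoc3 lie left of 0.

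Levels of different genes were compared per length, as CPM divided by the exonic length in kb. In WT the order was Apoa2 (12513 ± 4543 CPM per kb, mean ± SD, n = 3), Apoe (8775 ± 1991), Apoa1 (7739 ± 2702), Apoc1 (4085 ± 1755), Apoc3 (2137 ± 1228), Apoa5 (609 ± 21.8), Apoa4 (554 ± 355), Apob (214 ± 55.7), Apom (175 ± 24.7) and Apoc2 (2.28 ± 2.48). Within each WT library neighbours kept this order, except that Apoa4 lay above Apoa5 in WT-44 and Apom above Apob in WT-77. Across the 3 libraries the ranges of neighbours overlapped, apart from Apoc3 with Apoa5 and Apom with Apoc2. In IRF8-cKO the order was the same except that Apoa1 (5152 ± 1690 CPM per kb) stood above Apoe (4391 ± 555), with overlapping library values. Neighbours whose ranges did not overlap there were Apoe and Apoc1, Apob and Apom, and Apom and Apoc2. Within libraries the order was broken by Apoe above Apoa1 and Apoa4 above Apoa5 in IRF8-cKO-106. It was also broken by Apob above Apoa4 in IRF8-cKO-71 and IRF8-cKO-106. Apoa2 led at 6069 ± 1164 CPM per kb, and Apob stood at 367 ± 106.2 CPM per kb. The length in the table is the union of all annotated exons for all 10 genes, which understates levels per length of genes with many transcripts, and the place of Apoc2 rests on an uncertain count.

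The 10 genes together took 3.77%, 4.69% and 4.04% of all reads across WT against 2.97%, 2.91% and 3.33% across IRF8-cKO. All WT shares were above all IRF8-cKO shares. Within the reads of the 10 genes, Apob took 10.6%, 5.04% and 5.10% in the WT libraries in the same order and 12.3%, 16.5% and 26.5% in the IRF8-cKO libraries, while Apoe took 38.3% to 44.3% in WT and 31.8% to 34.4% in IRF8-cKO. Per length the pool was led by Apoa2 in each of the 6 libraries, at 29.9% to 35.1% of the summed CPM per kb, and Apob made up 0.430% to 1.02% of it in WT and 1.18% to 3.08% in IRF8-cKO.

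**Figure D3:**
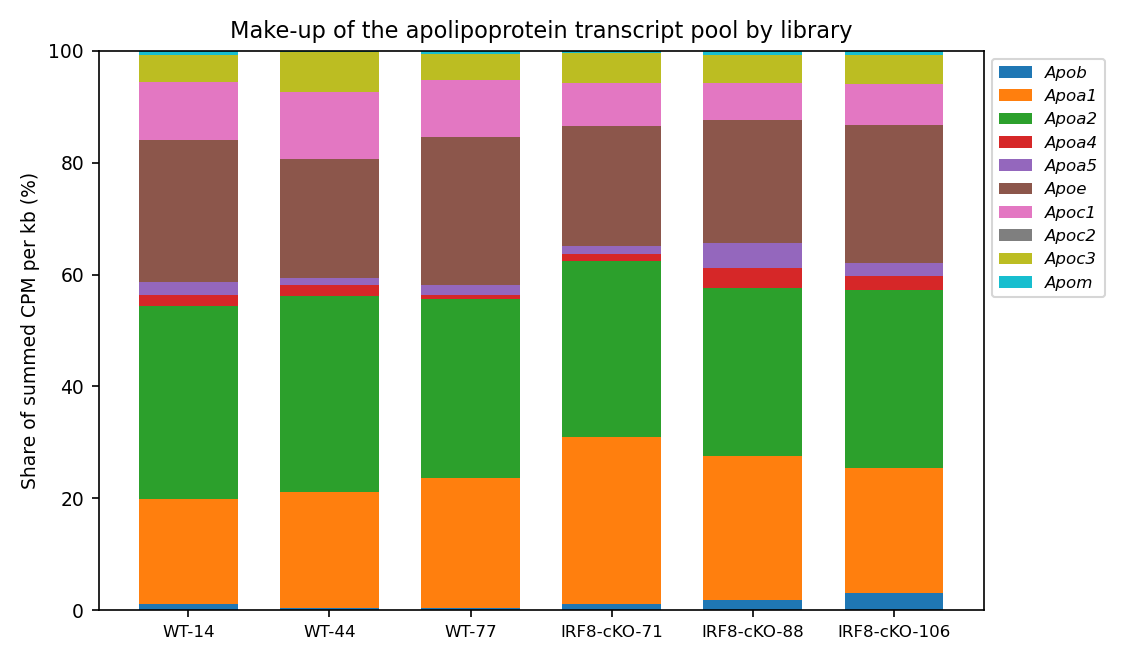
Share of each apolipoprotein gene in the summed CPM per kb of the 10 genes (percent, stacked bars, 1 bar per library). Apoa2 takes the largest share in every library (29.9% to 35.1%), the Apoc1 share is 10.2% to 12.1% in WT and 6.53% to 7.75% in IRF8-cKO, and Apob at the foot of the bars is under 4% in each.

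Ratios between neighbouring genes within a library do not depend on the scaling, but they change with the gene length correction. The log2 ratio of Apoc1 to Apoe was -2.82, -2.34 and -2.89 across WT against -2.99, -3.28 and -3.24 across IRF8-cKO. All IRF8-cKO ratios were below all WT ratios, by 0.49 on average (exact two-sided permutation p = 0.1, the smallest possible, and 0.4 after Benjamini-Hochberg adjustment over the 6 ratios tested). The gap was 0.32 without WT-44 (exact permutation p = 0.2) and 0.22 after the gene length correction, where the exact permutation p was 0.2. The log2 ratio of Apob to Apoa1, the backbones of VLDL and HDL, was -0.72, -2.09 and -2.14 across WT against -1.16, -0.39 and 0.64 across IRF8-cKO. It was 1.35 higher in IRF8-cKO (0.88 without IRF8-cKO-106), but WT-14 lay above IRF8-cKO-71 (exact permutation p = 0.2, adjusted 0.4). IRF8-cKO-106 was the only library with more Apob than Apoa1 reads. After the gene length correction both genes moved nearer to no difference. The log2 fold change of Apob went from 0.78 to 0.57 and that of Apoa1 from -0.59 to -0.31. Ratios to Apoa1 of its cluster neighbours Apoc3 (-0.38), Apoa4 (0.42) and Apoa5 (0.21), and the ratio of Apoc2 to Apoe (0.72), had exact permutation p of 0.2 to 0.8.

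Log2 fold changes varied with gene length over the whole table. Over all genes tested the median log2 fold change was -0.51 for the 825 genes under 1 kb, -0.23 from 1 to 2 kb, 0.01 from 2 to 4 kb, 0.11 from 4 to 8 kb and 0.21 for the 2123 genes of 8 kb or more. Among genes with a mean of at least 100 CPM it was -0.81 under 1 kb and 0.26 at 8 kb or more. Apoa2 (537 bases), Apoc1 (744 bases) and Apoc2 (813 bases) fall in the lowest class, Apoc3, Apom, Apoa1 and Apoa4 in the next, Apoe (2138 bases) and Apoa5 (2522 bases) in the 2 to 4 kb class, and Apob in the highest. After a correction that levels each library's trend with length, the log2 fold changes were -1.10 for Apoc1, -0.86 for Apoe, -0.72 for Apoc3, -0.54 for Apoa2 and 0.57 for Apob, and 5 of the 10 genes did not overlap between groups (28.4% of all genes). Apom moved from -0.55 to -0.21, and none passed (edgeR adjusted p 0.107 for Apoc1 and higher for the others). Within groups the trend differed as well: genes under 1 kb stood at a median of 0.53 in WT-44 and -0.46 in IRF8-cKO-106 relative to the mean of the 6 libraries, and between -0.21 and 0.19 in the other 4.

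**Figure D4:**
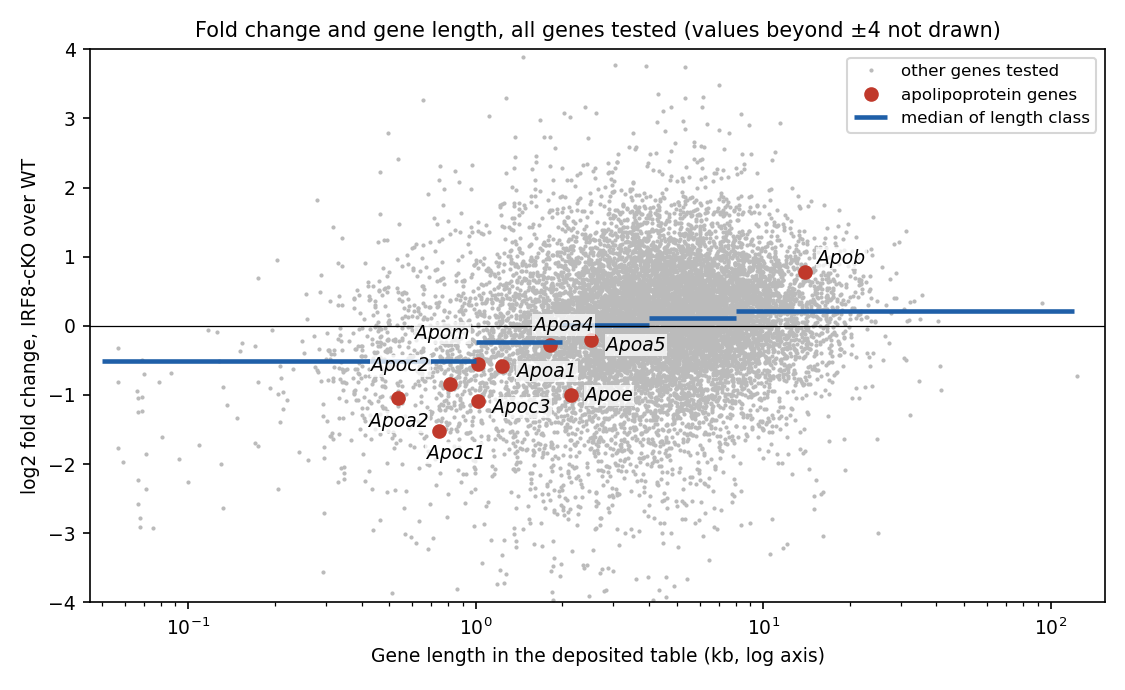
Log2 fold change, IRF8-cKO over WT, against gene length (kb, log axis) for all genes tested (grey), the 10 apolipoprotein genes (red, named) and the median of each length class (blue lines, from -0.51 under 1 kb to 0.21 at 8 kb or more). The apolipoprotein genes under 4 kb lie below 0 and Apob, at the long end, lies above.

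Other cells that make apolipoproteins were compared through marker lists. Summed CPM of 12 Kupffer cell markers (resident macrophages) was 123 to 149 in WT and 196 to 411 in IRF8-cKO, in the direction opposite to Apoe and Apoc1, with 12 of 12 members tested at a positive log2 fold change and 0 passing. Of 12 markers of monocytes and recruited macrophages, 10 were tested, 7 of them at a negative log2 fold change and 0 passing, with summed CPM of 140.2 to 147 in WT and 93.0 to 131 in IRF8-cKO. Hepatocyte markers had a median of -0.29 (15 tested, 10 negative, 0 passing; range of the summed level 112792 to 150097 CPM in WT and 81130.0 to 139544 CPM in IRF8-cKO). Groups did not overlap for 4 of the 15, all lower in IRF8-cKO (28.9% of all genes in either direction), among them the carrier protein genes Alb (log2 fold change -0.51, edgeR adjusted p = 0.412) and Ttr (-1.05, 0.129). Of the 15, 5 genes, Hp, Tdo2, Hpx, Cps1 and Fgb, had positive values of 0.21 to 0.89. Cholangiocyte markers were lower in summed CPM (597 to 1119 in WT, 149.9 to 308 in IRF8-cKO), with 8 tested, 8 negative and 0 passing. Spp1 made up most of these sums, at 853, 407 and 430 CPM across WT against 116, 209 and 198 CPM across IRF8-cKO. Of 11 neutrophil markers tested 5 passed, all lower, where 0.937% of all genes were called lower. Summed CPM of the neutrophil list overlapped, at 1253 to 3554 in WT and 785 to 4653 in IRF8-cKO. Most of it was Lcn2, the only 1 tested with a positive log2 fold change (0.19). The part of cell makeup in the apolipoprotein levels was not tested.

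Genes whose log2 CPM kept the most constant distance to a member over the 6 libraries were sought among 7294 protein-coding genes with a mean of at least 10 CPM, for the 5 members whose groups did not overlap. They were Proc, encoding the anticoagulant protein C, and Mettl26 for Apoe (SD of the difference 0.07 and 0.08 on the log2 scale), the ribosomal protein gene Rpl36 and Zfp1 for Apoa2 (0.11 and 0.12), Sem1 and Tmem256 for Apoc1 (0.13 and 0.15), Serpina1c and Hint2 for Apoc3 (0.14 and 0.17), and 2610507B11Rik and Fastkd1 for Apob (0.08 and 0.09). The log2 fold changes of the companions of Apob were 0.75 and 0.65. A value near that of Apob follows from the way companions were chosen. Lengths of companions were 383 (Rpl36) and 2040 bases (Zfp1) beside 537 for Apoa2, and 3542 (Sem1) and 1105 (Tmem256) beside 744 for Apoc1. They were 1361 (Serpina1c) and 1540 (Hint2) beside 1014 for Apoc3, and 1566 (Proc) and 1109 (Mettl26) beside 2138 for Apoe. Beside the 13934 bases of Apob they were 8798 (2610507B11Rik) and 5853 (Fastkd1). The part of gene length in these pairings was not tested. Between members, the closest pair was Apoa2 and Apoe (SD 0.16), followed by Apoa2 with Apoc3 (0.18) and with Apoc1 (0.27), while Apoa2 is the only 1 of these on chromosome 1. Serpina1c belongs to a family of near-identical genes, so its count is uncertain.

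The wider lipoprotein pathway was described by 6 lists of 100 genes, of which 90 were tested. Of all 13134 genes 0.449% passed as higher and 0.937% as lower. Of the 90 pathway genes 1 was higher, 4 were lower and 85 did not pass, with a median of -0.10. The 4 lower genes were Nr1d1, Apol9b, Apobec1 and Angptl4, and all 5 calls were lost without WT-44, without WT-77 or without IRF8-cKO-106 (0 calls each in edgeR, with 16, 18 and 21 of 91 genes at an unadjusted p under 0.05). Without IRF8-cKO-88 the number of calls was 13 of 91, where 1205 of all 13652 genes were called. Angptl4 was also lost without WT-14 or IRF8-cKO-71, and with library totals only Nr1d1 alone passed. DESeq2 called 16 of the 90 (11.3% of all genes) and limma-voom 4 (0.845%).

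Among 10 tested genes of other apolipoproteins, 1 was lower and 9 did not pass (median -0.26). Apol9b, of the apolipoprotein L family, fell 3.29-fold, from 38.3, 53.5 and 40.6 CPM across WT to 12.9, 12.2 and 15.1 CPM across IRF8-cKO (edgeR adjusted p = 0.0312). Apol9a and Apol9b are close copies, so their counts may be shared. Chosen after their values were seen, Apon and Apoc4 differed in direction: Apon stood at 164, 189 and 156 CPM across WT against 962, 269 and 369 CPM across IRF8-cKO. Its groups did not overlap, yet its log2 fold change of 1.65 did not pass (edgeR adjusted p = 0.0878). Apoc4, in the Apoe cluster and itself overlapped by Gm44805, stood at -1.09 (edgeR adjusted p = 0.167).

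Of 18 genes of VLDL assembly and secretion, 1 was lower and 17 did not pass. Positive log2 fold changes were seen for 12 of the 18 (median 0.36), the side on which Apob stood. Among all 13134 genes tested, 6768 were positive. The part of gene length in the list median was not tested. Mttp, the transfer protein that loads lipid onto apolipoprotein B, stood at 0.27 (SE 0.33, edgeR adjusted p = 0.640). Apobec1, the deaminase that edits Apob mRNA to the shorter B-48 form, fell 3.05-fold, from 46.5, 66.1 and 49.8 CPM across WT to 17.2, 21.99 and 14.02 CPM across IRF8-cKO. Every IRF8-cKO library lay well below every WT library (log2 fold change -1.61, SE 0.28, edgeR adjusted p = 0.0408). Gene counts hold no information on the edited base. A1cf, its cofactor, named after its value was seen, stood at 1.22 (adjusted p = 0.0939).

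In the lipolysis list 1 of 10 genes was lower and 9 did not pass, 9 of 10 having negative values (median -0.77). Among all 13134 genes tested, 6366 had negative values. Angptl4, an inhibitor of lipoprotein lipase, fell 3.86-fold, from 1799 ± 678 to 466 ± 89.9 CPM (edgeR adjusted p = 0.0446; 0.0533 after the gene length correction). Of 13 receptors and their regulators none passed (median -0.10, 2 at an unadjusted p under 0.05 in edgeR). The uptake receptor gene Lrp1 stood at 1.28 (adjusted p = 0.0796) and Mylip, a ubiquitin ligase gene, at 1.18 (0.0960). Leaving out IRF8-cKO-88 made Lrp1 pass (edgeR adjusted p = 0.0371). Of 14 tested genes of HDL formation and uptake none passed (median 0.01, 1 at an unadjusted p under 0.05 in edgeR), with the sterol transporter gene Abcg5 at -1.19 (adjusted p = 0.0705), Spns2 at 1.03 (0.268) and the cholesterol exporter gene Abca1 at 0.47 (0.570). Spns2 stood at 0.52 (edgeR adjusted p = 0.572) without IRF8-cKO-71 and at 1.47 (0.0305) without IRF8-cKO-88.

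Among 25 transcriptional regulators of these genes 1 was higher, 1 lower and 23 did not pass (median 0.01). Nr1d1, the clock repressor REV-ERB alpha, which is known to repress Apoc3, fell 5.12-fold from 45.5, 92.9 and 111 CPM across WT to 13.1, 17.9 and 17.7 CPM across IRF8-cKO. Its groups were far apart (edgeR adjusted p = 0.0312). The 1 call in the higher direction was lost with median-of-ratios scaling. Hnf4a, a general activator of apolipoprotein genes, stood at 0.15 (SE 0.37, adjusted p = 0.828), Ppara at -0.01 (SE 0.37) and Creb3l3, an activator of Apoa4 and Apoa5, at 0.30 (SE 0.31), none of them passing.

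**Figure D5:**
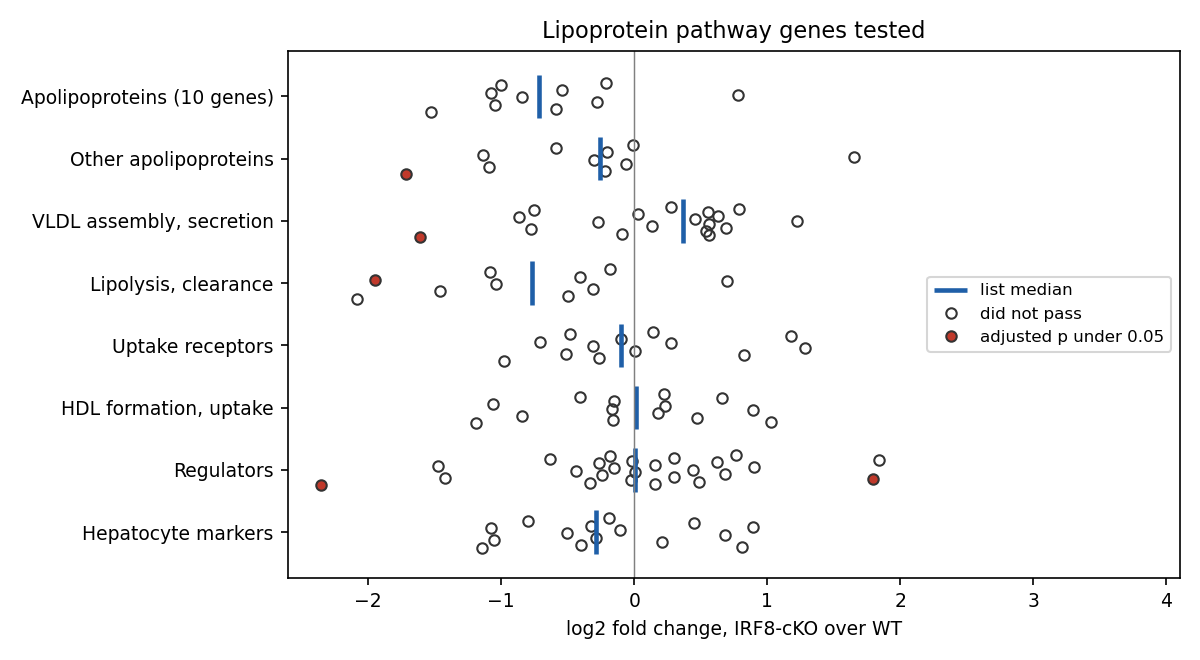
Log2 fold change, IRF8-cKO over WT, of each tested gene (circles, filled where adjusted p was under 0.05) in the apolipoprotein, lipoprotein pathway and hepatocyte marker lists, with the list medians as blue bars. Medians are -0.71 for the 10 apolipoprotein genes, 0.36 for VLDL assembly and secretion, -0.77 for lipolysis and clearance, and -0.29 for hepatocyte markers; the 5 filled circles are the pathway genes that passed.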

How the data were processed

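Bulk RNA of the ischemic liver lobe was sequenced in 3 WT and 3 IRF8-cKO libraries. HISAT2 2.0.5, featureCounts 1.5.0-p3 and build mm10 are listed in the submitters' processing notes. Strand setting, multi-mapping rule and annotation release were not stated. The deposited values are raw counts of reads per gene, not normalised by the authors. Libraries held 14758237 to 16805830 counts, and no pair within a group matched within sampling noise (chi-square divided by its degrees of freedom 69.9 or more).

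Columns were tied to samples by title. Genes were kept by filterByExpr (minimum count 10, minimum total 15; 13134 genes) and compared with edgeR 4.0.16 in R 4.3.3 (TMM, robust quasi-likelihood fit, two-sided, Benjamini-Hochberg adjustment over all genes, threshold 0.05). Log2 fold changes are IRF8-cKO over WT, and their SE is the absolute log2 fold change over the square root of F. Log2 ratios used a prior count of 0.5 and an exact two-sided permutation test. The length correction took a lowess curve (span 0.5) of each library's log2 CPM deviation against log gene length as offset. Alternatives were other scalings and filters, DESeq2 1.42.0, limma 3.58.1 (voom), and each library left out. Overlap of groups under other settings was added after the data were seen.

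Members and gene lists were chosen with earlier results of these data known. Named were all 10 members, the pathway genes that passed or else the 2 with the lowest p of a list, Mttp, Hnf4a, Ppara, Creb3l3 and Abca1, checks (Irf8, Alb, Ttr) and the 2 closest genes of members whose groups did not overlap. Endothelial and stellate marker lists had 10 and 8 members tested and 0 passing (medians 0.36 and 0.11). The procedure was tested on simulated data drawn from this comparison with 13134 genes, 200 of them changed: the recovered share was 62% at a 4-fold and 7% at a 2-fold change, and edgeR made 6 false calls among 75. A few genes that this rule takes are left out of the text. Exon overlaps came from GENCODE M21 and promoter windows from RefSeq.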

Additional observations from a re-analysis of the deposited data

How the results depend on the processing

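No paired analysis was possible because the groups share no replicate number. The count of changed genes over the whole table was 182, and it was 82 with library totals only, 1723 without the low-count filter, 1423 in DESeq2, 111 in limma-voom, 665 in limma-voom with library weights and 77 after the gene length correction. With 1 library left out it ranged from 0 (without WT-77, where 1988 genes had an unadjusted p under 0.05 in edgeR) to 1205 (without IRF8-cKO-88), with 1 without WT-44 and 20 without IRF8-cKO-106. The count of changed apolipoprotein genes, 0 on all 6 libraries, was 1 without the low-count filter, 3 in DESeq2 and 1 in limma-voom with library weights, and 0 with any 1 library left out. The 5 changed pathway genes became 1 with library totals only, 17 without the low-count filter, 16 in DESeq2, 11 in limma-voom with library weights and 3 after the gene length correction, and 0 to 13 with 1 library left out. For lost or gained calls the cause was not tested.

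Apoa1, Apoa2, Apob, Apoc1, Apoc3, Apoe and Apom kept their sign in all 17 alternatives. Apoa4 turned to 0.24 in limma-voom with library weights, and with 1 library left out it ranged from -0.74 to 0.29, Apoa5 from -0.82 to 0.037 and Apoc2 from -1.36 to 0.49. Ppara turned to 0.25 with library totals only, 0.0098 without the low-count filter and 0.16 in limma-voom with library weights. With 1 library left out, Ppara ranged from -0.27 to 0.31, Mttp from -0.020 to 0.49, Hnf4a from -0.13 to 0.47 and Abca1 from -0.26 to 0.86. Of the ratios, Apoa4 to Apoa1 ranged from -0.20 to 1.00, Apoa5 to Apoa1 from -0.22 to 0.69, Apoc2 to Apoe from -0.0036 to 1.48, Apob to Apoa1 from 0.88 to 1.81, Apoc1 to Apoe from -0.59 to -0.32 and Apoc3 to Apoa1 from -0.56 to -0.18 with 1 library left out. The number of apolipoprotein genes without overlap was 4 with library totals only (25.3% of all genes) and 5 to 7 in all other settings tried. Apart from Apoc2, the 10 genes had more than 1000 reads in each library. With 3 libraries a group, 7% of 2-fold differences were recovered in simulated data. The changed genes there were drawn at random from all 13134 genes. Recovery was not measured for genes at the read counts of the apolipoproteins.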
